A study of Mus musculus with 3 samples.

Results

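Germinal centre B cell genes are the 7 genes Bcl6, Fas, S1pr2, Rgs13, Mef2b, Gcsam and Basp1. They were chosen by name, for their known expression in B cells of the germinal centre, and with earlier results of these data known. All 7 were found once each among the 27088 genes of the deposited table. The study sequenced RNA of sorted splenic B cells from female BALB/c mice labelled as 13 weeks old, with the samples of 3 mice mixed into 1 library per group. The PBS group was sensitized intraperitoneally with 10 μg of OVA (ovalbumin) and 2 mg of aluminum hydroxide on days 0, 7 and 14, was challenged intranasally with 100 μg of OVA from day 21 to 27 and from day 29 to 35, and received subcutaneous PBS on days 0, 14 and 28. The SJMHE1 group had the same sensitization and challenge and received 10 μg of SJMHE1, a small peptide of the parasite Schistosoma japonicum, on those 3 days. SJMHE1 was emulsified in incomplete Freund's adjuvant and PBS was not, so the peptide and the adjuvant cannot be told apart. The mice were sacrificed on day 36. The library of the Control group, which was made from normal mice, was not analysed here. Total depth was 48267168 counts for PBS and 51280237 for SJMHE1. With 1 pooled library per group there is no replicate check, no test was run, and every difference below describes these 2 libraries.

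The germinal centre is the structure in the B cell follicle in which activated B cells divide, mutate their antibody genes and are selected for binding to antigen. Its cells depend on the repressor BCL6, carry the death receptor FAS at high level, and are held in place by the sphingosine-1-phosphate receptor S1PR2. In the spleen they form after immunization and are a small part of all B cells. Since the RNA is a bulk sample, fewer germinal centre B cells and less RNA of these genes per cell cannot be told apart.

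Of the 7 genes, 6 were lower in the SJMHE1 library than in the PBS library and 1, Bcl6, was higher. Gcsam, S1pr2 and Rgs13 were lower by more than 2-fold, Basp1, Mef2b and Fas were lower by less, and no member was higher by more than 2-fold. The ratio was taken from FPKM values, which relate fragments to gene length and library size and can therefore be compared between genes, and it is given on the log2 scale without a pseudocount. The 95% counting interval of each ratio was computed by the exact Clopper-Pearson method on the share of the gene's counts that fell in each library. It covers counting error only and no difference between mice. The median log2 ratio of the 7 genes was -0.93, beside -0.01 over the 12433 genes compared, which reached 1 FPKM in either library and were not at 0 in the other. Among those 12433 genes, 51.9% were lower by any amount, 3.57% were lower by more than 2-fold, 2.43% were higher by more than 2-fold and 6% passed 2-fold in either direction. Low levels need care here, because Gcsam and S1pr2 met the minimum through the PBS library alone and had to be lower to do so. Of the 5 members that reached 1 FPKM in each library, 1, Rgs13, was lower by more than 2-fold, against 1.33% of all such genes, and the median of these 5 was -0.64. The members were counted well, with 181 to 5252 counts each, and among genes with at least 100 counts in both libraries 1.42% were lower by more than 2-fold.

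**Figure D1:**
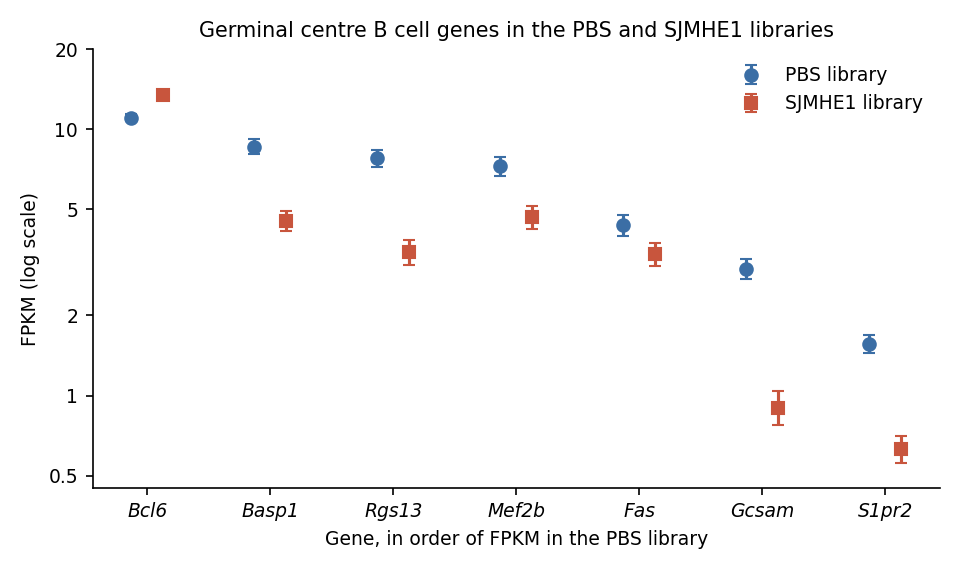
FPKM of the 7 germinal centre B cell genes in the PBS library (circles) and the SJMHE1 library (squares), on a log axis, with 1 pooled library per group. Bars are exact 95% Poisson intervals of the counts and cover counting error only. Bcl6 is the highest gene in both libraries and the only one that is higher in the SJMHE1 library, and Gcsam and S1pr2 lie below an FPKM of 1 there.

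Bcl6 and Mef2b encode transcription factors. Bcl6 (ENSMUSG00000022508) encodes the zinc finger repressor on which germinal centre formation depends, and occupies bases 23965052 to 23988852 of chromosome 16 (GRCm38, minus strand), with up to 10 exons in GENCODE M21. Its FPKM was 11.1 in the PBS library, from 4070 counts, and 13.5 in the SJMHE1 library, from 5252 counts. The log2 ratio was therefore 0.29, with a counting interval from 0.22 to 0.34 that does not hold 0. The difference of 1.22-fold is well within 2-fold. An annotated gene on the opposite strand, Gm37419, shares 21 exonic bases with Bcl6 and had 11 and 8 counts. Bcl6 was the most abundant of the 7 genes in both libraries, and of all genes compared 84.6% had a lower ratio. Bcl6 is also made by follicular helper T cells and at low level by resting B cells.

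The RefSeq table gives Bcl6 a pair of starts, and the 250 bases before each are printed because Bcl6 was the only member that was higher and because BCL6 is known to bind its own gene. The first window is chr16:23988853-23989102 and the second, before a start inside the gene, is chr16:23981284-23981533, both in GRCm38 and written 5′ to 3′ on the minus strand. Capitals mark TTCNNNGAA, a pair of half-sites shared by the STAT and BCL6 recognition sequences, searched on both strands.
Bcl6 first start: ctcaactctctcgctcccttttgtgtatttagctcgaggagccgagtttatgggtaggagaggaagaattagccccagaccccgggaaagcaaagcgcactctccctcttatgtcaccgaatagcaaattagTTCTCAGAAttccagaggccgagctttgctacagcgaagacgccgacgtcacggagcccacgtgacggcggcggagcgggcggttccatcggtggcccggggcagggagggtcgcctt
Bcl6 second start: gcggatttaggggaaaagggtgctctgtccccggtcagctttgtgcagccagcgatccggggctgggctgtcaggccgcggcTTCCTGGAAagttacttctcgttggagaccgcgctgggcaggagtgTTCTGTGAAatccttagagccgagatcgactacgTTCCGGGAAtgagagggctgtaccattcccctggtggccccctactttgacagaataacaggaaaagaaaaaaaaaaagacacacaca
The first window holds 1 match, 118 to 110 bases before the start. The second window holds 3 matches. Of all 32851 promoter windows of this length, 7.02% hold at least 1 match. Among the other members only the Fas window holds it. A match describes the letters and does not show that a factor binds there.

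Mef2b (ENSMUSG00000079033) encodes a MADS-box factor that activates Bcl6 transcription in germinal centre B cells, and lies on the plus strand of chromosome 8 from 70139711 to 70167488. Its FPKM was 7.26 in the PBS library, from 560 counts, and 4.67 in the SJMHE1 library, from 382 counts. The log2 ratio was -0.64, with a counting interval from -0.83 to -0.45, so Mef2b was lower while Bcl6 was higher. The gene overlaps Borcs8, a gene of lysosome positioning on the same strand, and 62 exonic bases, which are 4.42% of those of Mef2b, belong to both. Borcs8 itself had an FPKM of 10.7 and 9.78, a log2 ratio of -0.12. How reads of the shared bases were assigned is not given in the sources used here. The RefSeq start of Mef2b lies 13050 bases downstream of the start in GENCODE, and the 250 bases before it hold the octamer ATGCAAAT, the recognition sequence of the OCT factors of B cells, 85 to 78 bases before the start. The octamer, on either strand, is in 1.6% of all windows and in no window of the other members.

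S1pr2, Rgs13 and Gcsam encode proteins that act on migration and receptor signals. S1pr2 (ENSMUSG00000043895) encodes the receptor that confines germinal centre B cells through the G protein subunit Gα13, and occupies bases 20962361 to 20976781 of chromosome 9 (minus strand). Its FPKM was 1.56 in the PBS library, from 686 counts, and 0.63 in the SJMHE1 library, from 293 counts. The log2 ratio was -1.31, with a counting interval from -1.52 to -1.12 that lies wholly past 2-fold. S1pr2 was the least abundant member in both libraries. In this library pair it was 2.48-fold lower with SJMHE1.

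Rgs13 (ENSMUSG00000051079), at bases 144138654 to 144177372 of chromosome 1 (minus strand, 6 exons), encodes a regulator of G protein signalling that dampens responses to chemokines in germinal centre B cells. Its FPKM was 7.78 in the PBS library, from 707 counts, and 3.45 in the SJMHE1 library, from 333 counts. The log2 ratio was -1.17, and the counting interval from -1.37 to -0.98 reached just across the 2-fold line. Rgs13 thus had 2.26-fold less RNA per length in the SJMHE1 library.

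Gcsam (ENSMUSG00000022659) encodes a small adaptor of germinal centre B cells that links B cell receptor signals to the cytoskeleton and limits cell motility, and lies on the plus strand of chromosome 16 from 45610380 to 45622867. Its FPKM was 2.99 in the PBS library, from 562 counts, and 0.90 in the SJMHE1 library, from 181 counts. The log2 ratio of -1.73 (counting interval -1.97 to -1.48) was the lowest of the 7 and corresponds to a 3.32-fold lower level. Only 1.27% of the genes compared had a lower ratio. The counting interval lay wholly past 2-fold for Gcsam and S1pr2, as it did for 1.46% of all genes compared. Both genes met the FPKM minimum through the PBS library alone and had to be lower to do so. These shares are therefore no support for a difference. With a pseudocount of 1 FPKM, which shrinks the ratio of low genes, only Gcsam stayed past 2-fold, at -1.07, while S1pr2 stood at -0.65 and Rgs13 at -0.98.

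The sequences before the starts of these 3 genes are printed because these members were past 2-fold. In GRCm38 they are chr16:45610190-45610439 on the plus strand for Gcsam, chr9:20976794-20977043 on the minus strand for S1pr2 and chr1:144177373-144177622 on the minus strand for Rgs13, each written 5′ to 3′. Capitals mark the E-box CAGGTG, searched on both strands, which the B cell factor E2A binds.
Gcsam: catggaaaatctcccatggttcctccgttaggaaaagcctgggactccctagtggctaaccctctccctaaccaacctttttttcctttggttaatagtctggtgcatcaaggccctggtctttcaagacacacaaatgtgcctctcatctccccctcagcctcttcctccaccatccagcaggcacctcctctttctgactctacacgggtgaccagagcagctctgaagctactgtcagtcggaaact
S1pr2: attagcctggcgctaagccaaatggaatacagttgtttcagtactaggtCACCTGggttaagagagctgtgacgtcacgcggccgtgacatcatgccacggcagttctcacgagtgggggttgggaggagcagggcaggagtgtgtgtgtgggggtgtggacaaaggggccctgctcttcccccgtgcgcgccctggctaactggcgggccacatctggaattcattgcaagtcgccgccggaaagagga
Rgs13: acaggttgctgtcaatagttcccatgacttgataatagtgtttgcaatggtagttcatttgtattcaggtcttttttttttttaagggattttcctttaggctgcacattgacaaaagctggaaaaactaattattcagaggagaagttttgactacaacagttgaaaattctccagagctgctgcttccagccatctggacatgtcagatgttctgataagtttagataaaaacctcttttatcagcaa
The S1pr2 window holds 1 E-box on the opposite strand, 201 to 196 bases before the start, and the E-box is in 17.2% of all windows. Neither TTCNNNGAA nor the octamer is in the 3 windows, and the MEF2 consensus, which is in 2.92% of all windows, is in none of the members' windows. The windows differ in base composition, with 36.0% G and C for Rgs13, 51.6% for Gcsam and 59.2% for S1pr2, beside a median of 52.4% over all windows. None of the 4 motifs searched is common to the 3 windows, which says only that these letters are not in these 250 bases.

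The remaining members encode a death receptor and a membrane protein. Fas (ENSMUSG00000024778), on the plus strand of chromosome 19 from 34290666 to 34327772, encodes the receptor that triggers apoptosis when bound by FAS ligand, and its surface level is used to sort germinal centre B cells, although many other activated cells carry it. Its FPKM was 4.36 in the PBS library, from 494 counts, and 3.40 in the SJMHE1 library, from 409 counts. The log2 ratio was -0.36, with a counting interval from -0.55 to -0.17, the smallest difference among the 6 lower members. Basp1 (ENSMUSG00000045763), at bases 25363277 to 25413764 of chromosome 15 (minus strand), encodes a myristoylated protein of the inner plasma membrane that was first described in neurons. Its FPKM was 8.61 in the PBS library, from 950 counts, and 4.52 in the SJMHE1 library, from 529 counts. The log2 ratio was -0.93, with an interval from -1.09 to -0.78 that holds the 2-fold line. Basp1 and Rgs13 were close to 2-fold on either side, and counting error alone does not place them apart from it.

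The order of the levels was not the same in the 2 libraries. In the PBS library Bcl6 was followed by Basp1, Rgs13, Mef2b, Fas, Gcsam and S1pr2. In the SJMHE1 library Mef2b came second, ahead of Basp1, Rgs13 and Fas, with Gcsam and S1pr2 again lowest. The Poisson intervals of Basp1, from 8.07 to 9.18, and of Rgs13, from 7.22 to 8.38, overlapped in the PBS library, and so did those of Rgs13 and Mef2b. In the SJMHE1 library the intervals of Mef2b and Basp1 overlapped, as did those of Rgs13 and Fas. Relative to Bcl6, the FPKM of Rgs13 was 0.703 with PBS and 0.256 with SJMHE1, and that of Gcsam was 0.270 and 0.0667. Without Bcl6, the FPKM of the other 6 members summed to 32.6 with PBS and to 17.6 with SJMHE1. By ratio, each member's counting interval overlapped that of the next in order from Gcsam through S1pr2, Rgs13, Basp1 and Mef2b to Fas, and only Bcl6 stood apart from its neighbour.

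**Figure D2:**
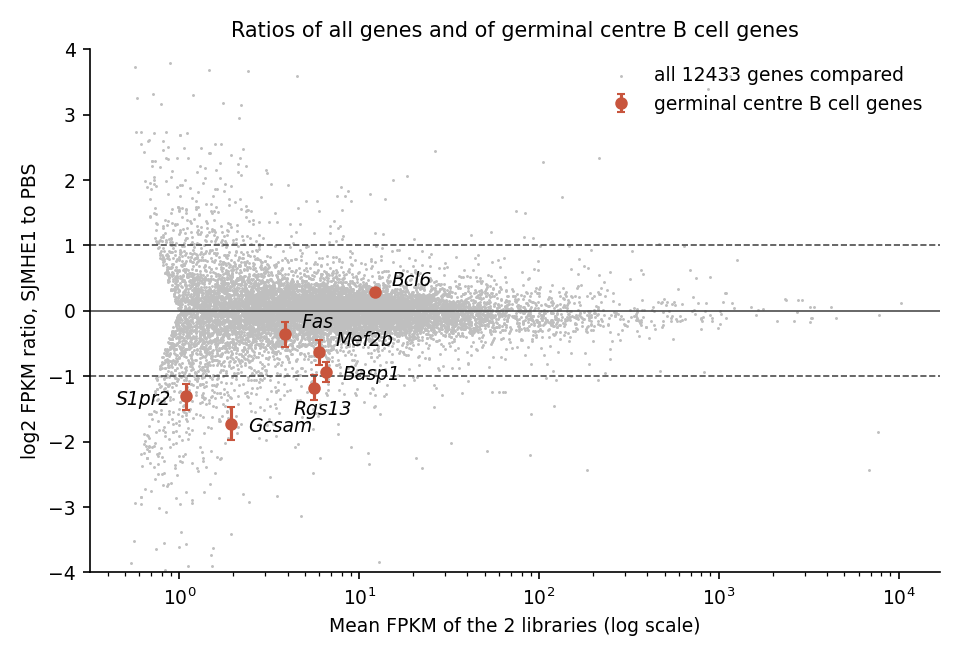
log2 FPKM ratio of SJMHE1 to PBS against the mean FPKM of the 2 libraries (log axis) for the 12433 genes compared (grey), with the 7 germinal centre B cell genes in red and their 95% counting intervals as bars. Dashed lines mark 2-fold and 17 genes beyond the vertical range of -4 to 4 are not drawn. Gcsam, S1pr2 and Rgs13 lie below the lower line, and Bcl6 lies above 0.

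Other genes were read from 13 lists of 118 genes in all, of which 112 passed the FPKM minimum. The lists hold genes of the germinal centre, partners, targets and relatives of the members, and naive follicular B cell genes for contrast. Over all 112 the median log2 ratio was -0.07, which is no value for the germinal centre alone. Of the 112, 0 were higher by more than 2-fold, beside 2.43% of all genes compared. Rgs1, a relative of Rgs13 that is induced in activated lymphocytes, was lower by more than 2-fold. Its FPKM was 13.5 with PBS, from 5160 counts, and 5.88 with SJMHE1, from 2377 counts, and its log2 ratio was -1.20 (counting interval -1.28 to -1.14), next to that of Rgs13.

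The 11 genes of hypermutation and switching that passed the minimum had a median of -0.10. Of these, 7 were lower and 4 were higher, with a highest ratio of 0.43, and 51.9% of all genes compared were lower. Nuggc, a GTPase gene of germinal centre B cells, had a log2 ratio of -0.98, and Neil1, a DNA glycosylase gene, had -0.73. The mismatch repair gene Msh6, which all dividing cells use, had -0.11. Among 17 regulators of the germinal centre 13 were lower and 4 were higher, and the median was -0.14. Of the 17, 0 were past 2-fold, beside 6% of all genes compared. Mybl1, the A-MYB gene of dividing germinal centre B cells, had an FPKM of 2.93 and 1.69 and a log2 ratio of -0.79, and Ezh2, the histone methyltransferase gene, had -0.65. The abundant Pou2af1 and Spib, which B cells outside the germinal centre also express, had ratios of 0.23 and 0.17.

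Genes that BCL6 works with or represses were near the median of all genes. The 6 corepressor genes had a median log2 ratio of -0.04, with 0.17 for Ncor1 and -0.14 for Ctbp1. The 15 genes known to be repressed by BCL6 had a median of 0.04, with 7 lower and 8 higher. Of the 15, 0 were past 2-fold, beside 6% of all genes compared. Prdm1, the plasma cell repressor gene, had an FPKM of 2.31 and 2.19, a log2 ratio of -0.08 whose interval from -0.24 to 0.07 holds 0. S1pr1, the receptor that draws lymphocytes out of tissue, had 0.22, the opposite sign to S1pr2, and Gpr183, which guides B cells to the outer follicle, had -0.36.

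Among partners and relatives of the other members that passed the FPKM minimum, only Rgs1 was past 2-fold, beside 6% of all genes compared. Of the 11 genes of S1P receptors and Gα13 signalling, the median was -0.04, and Arhgef1, an exchange factor downstream of Gα13, had -0.08. Of the 7 genes of the Fas death pathway that passed the minimum, the median was 0.05, with -0.03 for Casp8 and 0.29 for Bid. Fasl, the ligand gene, did not pass it, with 38 counts with PBS and 4 with SJMHE1. The 7 RGS genes had a median of -0.03, with -0.03 for Rgs2 and 0.14 for Rgs19, so among the relatives of Rgs13 that passed the minimum only Rgs1 was past 2-fold. The 8 genes of the MEF2 family and its repressors had a median of -0.16, with 0.05 for Mef2c and -0.33 for Mef2d. Marcksl1 and Marcks, relatives of Basp1, had -0.13 and 0.03. The 6 receptors of follicle positioning had a median of -0.27. Ccr7, the receptor for the T cell zone, had -0.82 and Cxcr4, the dark zone receptor, had -0.17.

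The zones of the germinal centre were read from their own lists, beside the 51.9% of all genes compared that were lower by any amount. In the dark zone, where the cells divide, 9 of 11 cell cycle genes were lower and the median was -0.43. Of the 11, 0 were past 2-fold, beside 6% of all genes compared. Mki67, a marker of dividing cells, had an FPKM of 11.5 and 8.54, a log2 ratio of -0.43, and Cdc20, an activator of mitotic exit, had -0.82. In the light zone list, 5 of 8 genes were lower, a share near that of all genes, and the median was -0.30. Cd83 had -0.65 and Nfkbia -0.21, and the other lower genes, Efnb1, Cd86 and Plxnb2, had -0.47, -0.40 and -0.39. Slamf1, Il21r and Cd40 were higher, at 0.19, 0.11 and 0.09. These genes are not particular to the germinal centre, since any dividing or activated B cell expresses them. The list of naive follicular B cells had a median of 0.10, with 0.11 for Ighd, the IgD heavy chain gene, and -0.01 for Klf2.

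**Figure D3:**
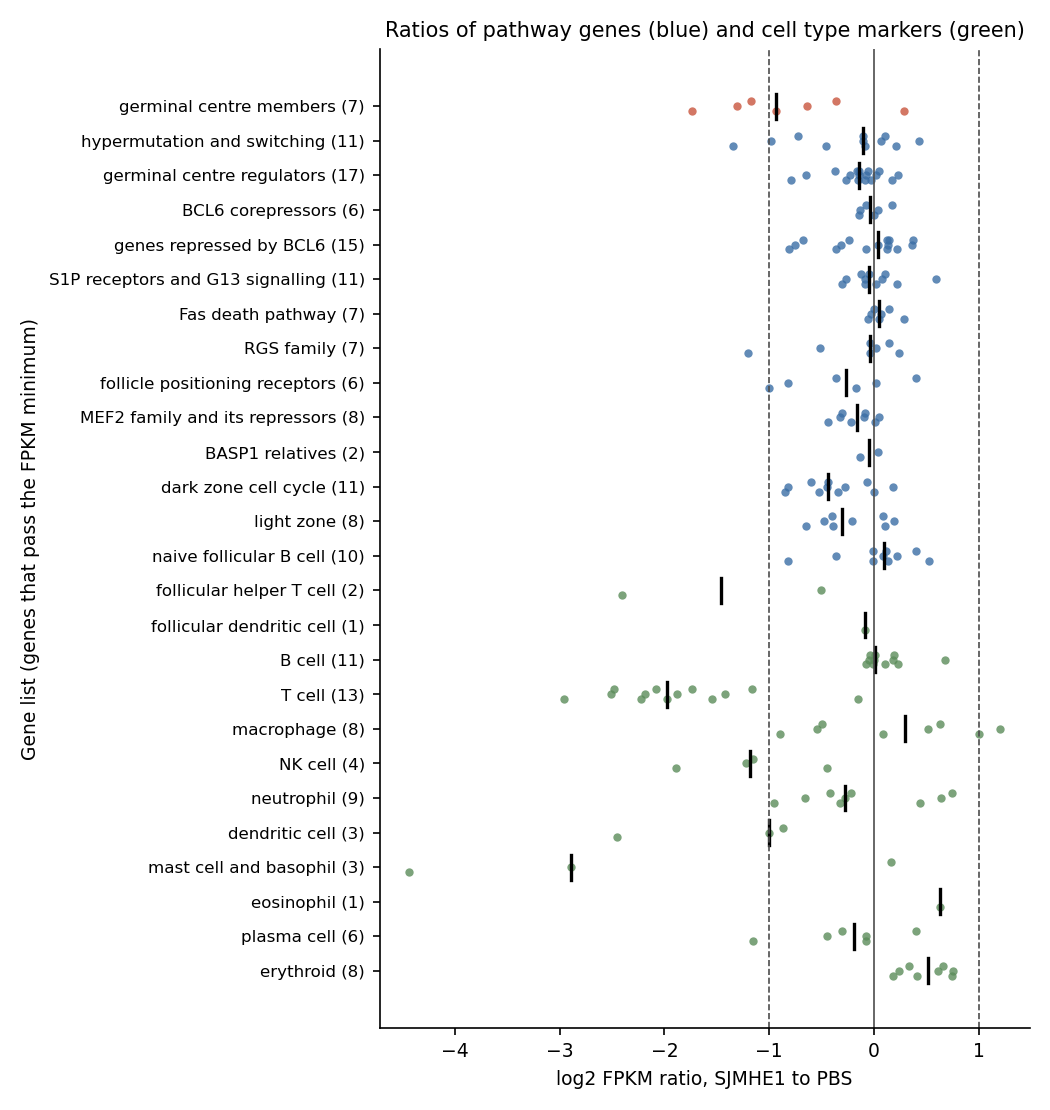
log2 FPKM ratio of SJMHE1 to PBS for each gene that passed the FPKM minimum, by list, with the number of genes in brackets, the median of each list as a black bar and 2-fold as dashed lines. The 7 germinal centre B cell genes (red) have a median of -0.93, the B cell markers one of 0.01 and the T cell markers one of -1.97.

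Markers of some other cells were also lower in the SJMHE1 library, and their part in the ratios of the members was not tested. The sorted cells carried the B cell markers at high level, with all 11 between 61.4 and 835 FPKM with PBS and between 72.1 and 835 FPKM with SJMHE1, and a median log2 ratio of 0.01. All 13 T cell markers were lower in the SJMHE1 library, 12 of them by more than 2-fold, beside 3.57% of all genes compared. Some of the 12 met the FPKM minimum through the PBS library alone and had to be lower to do so. The summed FPKM of the 13 was 88.9 with PBS and 41.1 with SJMHE1. Of these sums Lck, the marker not past 2-fold, gave 27.9 and 25.2, with a log2 ratio of -0.15. Trbc2, Trbc1, Trac and Thy1, which reached 1 FPKM in each library, had log2 ratios of -2.08, -1.88, -2.48 and -1.97. Of the 8 markers of follicular helper T cells, which help germinal centre B cells and themselves express Bcl6, 2 passed the minimum. Of these, Cd40lg, the gene of the CD40 ligand, had -2.41, and it met the minimum through the PBS library alone. Il21, their hallmark cytokine gene, had 33 counts with PBS and 0 with SJMHE1, and its FPKM of 0.11 with PBS was below the minimum. The upper limit of its counting interval was a log2 ratio of -3.17. Setting SJMHE1 at the 3-count limit gave an 11.7-fold lower level, but that figure leaves out the counting error of the PBS library. Bcl6 was higher while these T cell markers were lower.

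Rgs13 is also expressed by mast cells, and of 8 markers of mast cells and basophils 3 passed the minimum. Prss34 and Cpa3 had log2 ratios of -4.44 and -2.89, and Hdc had 0.17. Prss34 and Cpa3 met the minimum through the PBS library alone and had to be lower to do so. The summed FPKM of the 8 markers was 7.45 with PBS and 2.53 with SJMHE1, with Tpsb2 at 0 counts in both. The part of mast cells in the ratio of Rgs13 was not tested. Of the 4 NK cell markers that passed, Gzma, Klrd1 and Ncr1 were lower by more than 2-fold, beside 3.57% of all genes compared. Klrd1 and Ncr1 met the minimum through the PBS library alone. The 7 NK cell markers summed to 13.0 and 6.18. The dendritic cell markers Siglech and Itgax were lower by more than 2-fold too, and Siglech met the minimum through the PBS library alone. Zbtb46 did not pass the minimum and was the only marker of this list that was higher. It had 207 counts with PBS and 326 with SJMHE1, a log2 ratio of 0.56. The 7 dendritic cell markers summed to 8.13 and 3.78, with Batf3 at 0 counts in the SJMHE1 library. Of 8 macrophage markers that passed, 5 were higher, and the median was 0.30. C1qc and C1qb were higher by more than 2-fold, beside 2.43% of all genes compared, and C1qc met the minimum through the SJMHE1 library alone. The sum over the 12 macrophage markers was 30.7 and 26.7, with Cd68 alone at 12.6 and 6.77. Of 9 neutrophil markers 6 were lower, beside 51.9% of all genes compared, and the median was -0.28. The sum of the 9 was 438 and 510 and was led by S100a9 and S100a8, which were higher at 0.44 and 0.64. Erythroid markers summed to 153 and 201, and eosinophil markers to 5.83 and 8.74. Plasma cell markers summed to 517 and 443, with Tnfrsf17, which met the minimum through the PBS library alone, lower by more than 2-fold. Follicular dendritic cell markers summed to 2.04 and 2.02, with Madcam1 at 0 counts in the SJMHE1 library, and Cxcl13 had 4 counts with PBS and 19 with SJMHE1.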

How the data were processed

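RNA of sorted splenic B cells was depleted of ribosomal RNA and primed with random primers, per the labels. The submitters' processing notes name the genome build mm10 and bcl2fastq 2.0, HISAT2, StringTie, DESeq2 and limma. The counting tool, its strand setting and the annotation are not given in the sources used here. The authors deposited 1 table with whole-number counts per gene, not normalized, and FPKM values rounded to 2 decimals. A further 2 columns, whose names matched no sample, were not used, so comparisons with the Control group were not made.

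Libraries were compared by the log2 of SJMHE1 FPKM over PBS FPKM, without a pseudocount. A gene was compared if it reached 1 FPKM in either library and was not at 0 in the other, and 2-fold was the threshold. Tests for counts need replicates and none was run. Counting intervals are at the 95% level, and the limit for a gene at 0 was taken as 3 counts per library. Intervals and floors cover counting error only. Reads without molecular identifiers are not independent molecules, so the true counting error may be larger than the intervals.

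The members and lists were chosen with earlier results of these data known. The text names the 7 members, up to 5 genes past 2-fold of each list (otherwise 4, by FPKM), the 2 most abundant genes of each pathway list, and Mybl1, Prdm1, Fasl, Il21 and Cxcl13. A further gene that the rule names is not reported here. Nuggc, Ezh2, Mef2c, Hdc, Slamf1, Il21r, Cd40, Efnb1, Cd86, Plxnb2, Lck, Cd68, Zbtb46, S100a8 and S100a9 were named after their values were seen. So were the markers at 0 counts. Gene positions were those of GENCODE M21 (GRCm38) for all 7 members. Promoter sequences are from RefSeq (GRCm38.p6), in which all 7 members matched. Motifs were chosen with these sequences in view.

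The calculations were tested on simulated data. Scaling factors of the alternatives came from DESeq2 1.42.0 and edgeR 4.0.16 in R 4.3.3. All else was done in Python 3.11.15 (scipy 1.17.1, numpy 2.4.6, matplotlib 3.10.9, pandas 2.3.3).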

Additional observations from a re-analysis of the deposited data

How the results depend on the processing

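The values were recomputed under 10 other settings, of which 1, centring on the median of the B cell markers, was chosen after seeing the data. Of these, 6 change the scaling of the libraries, and each moves the log2 ratios of all genes by a common amount, on FPKM or on counts. Under them the 42 values of single members kept their sign, and 41 stayed inside the counting interval of the main value. The exception was Bcl6 with FPKM rescaled to equal sums, at 0.37. The 42 values are the same member ratios under 6 shifts, so they are not separate checks. A filter cannot change the ratio of a gene and a pseudocount cannot change its sign, so these settings bear on counts and medians. The median of the members was -0.65 with a pseudocount of 1, -0.64 where each library had to reach 1 FPKM, which left 5 members, and between -0.94 and -0.85 otherwise. The number of members past 2-fold, 3 in the main setting, was 1 with a pseudocount of 1 and 1 with that stricter minimum, and 3 under the other settings. A pseudocount shrinks ratios of low genes by its construction, and the stricter minimum leaves out Gcsam and S1pr2 by its construction. Over all genes, 746 were past 2-fold in the main setting, 246 with a pseudocount of 1, 252 where each library had to reach 1 FPKM and 3385 when no filter was set. No paired analysis was possible because a group holds only 1 library and no test was run. For the same reason no replicate could be left out, and alternatives for comparisons with the Control group were not run. Depth limits Gcsam most, with 181 counts in the SJMHE1 library. Differences between mice cannot be measured from pools of 3, so no value carries an error for them.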
